A study of Homo sapiens with 24 samples.

Results

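The Schlafen genes SLFN5, SLFN11, SLFN12 and SLFN13 were taken by symbol from both deposited count tables, which each list 28277 genes. All 4 were found in both tables and all 4 passed the filter on low counts, among 15882 genes tested in the first table (A) and 17020 in the second (B). The tables hold polyA RNA-seq counts from PEO1 and PEO4, established high-grade serous ovarian carcinoma lines derived from one case before and after chemoresistance arose. The A pair was untreated and consisted of PEO1 A, the BRCA2-deficient parental line, and PEO4 A, which is chemoresistant and BRCA2-proficient; the labels give the genotype of both as WT. The B pair consisted of PEO1 B, a spontaneous BRCA2+ revertant also called PEO1 BRCA+, and PEO4 B, again labelled WT. The B lines were untreated or received 5 µM PDS (pyridostatin, a small molecule that binds and stabilises G-quadruplex DNA) for 2 or 6 h. Each of the 8 groups had 3 replicates. Each line is a single cell line, so a difference between PEO1 and PEO4 is a difference between lines and not between patients. Levels are CPM, counts scaled to the library total with trimmed mean of M values (TMM) factors within a table, given as mean ± SD over 3 libraries, and nothing was tested between the A and B tables.

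Schlafen proteins are a vertebrate family that shares a core with RNA-cutting or RNA-binding activity, and many of its genes are switched on by interferon. The nuclear member SLFN11 is recruited to stressed replication forks and blocks them, and its expression is known to mark tumour cells that are sensitive to platinum drugs, topoisomerase poisons and PARP inhibitors. SLFN5, a second nuclear member, has been described as a regulator of interferon-driven transcription, SLFN12 is a cytoplasmic RNase that is activated when drugs join it to the phosphodiesterase PDE3A, and SLFN13 is an RNase that cuts transfer and ribosomal RNA.

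Between PEO4 and PEO1 SLFN11 had the largest log2 fold change of the 4 genes, untreated and at both PDS times. It was lower in PEO4 than in PEO1 in both untreated pairs, and it fell further in PEO4 B under PDS while PEO1 B stayed near its untreated level. SLFN5 was lower in untreated PEO4 B than in PEO1 B and rose at 2 h of PDS in PEO4 B, SLFN13 fell in PEO4 B by 6 h, and SLFN12 was called in no comparison. A gene was called when edgeR's quasi-likelihood test gave a Benjamini-Hochberg adjusted p under 0.05 over all tested genes and the absolute log2 fold change was over 1. Between untreated PEO4 and PEO1, 1 of the 4 genes was called in the A pair, where 25.8% of all tested genes were, and 2 of 4 in the B pair, where 24.8% were. Under PDS, PEO1 B had 0 of 4 called at 2 h (7.57% of all genes) and 0 of 4 at 6 h (8.13%), by edgeR and by DESeq2 alike. At an unadjusted edgeR p under 0.05 alone these counts were 3, all but SLFN11, and 0. No share of all genes was taken at that rule, and 52.6% and 53% of them passed the stricter adjusted p alone. PEO4 B had 2 of 4 called at 2 h against 17.4% of all genes, and 2 of 4 at 6 h against 22.6%.

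The adjusted p alone, with no fold threshold, was passed by 6.94 to 72.9% of all tested genes, depending on the comparison. In the untreated comparisons it was passed by 2 of the 4 in the A pair (61.6% of all genes) and by 4 of 4 in the B pair (68.6%), and between the treated lines by 2 at 2 h (72.9%) and 3 at 6 h (68.6%). In PEO1 B it was passed by 2 at 2 h (52.6%), 0 at 6 h (53%) and 1 from 2 to 6 h (6.94%), and in PEO4 B by 3 at 2 h (65.3%), 3 at 6 h (69.8%) and 3 from 2 to 6 h (60.1%). The interaction passed for 4 at 2 h (37.3%) and 3 at 6 h (47.4%). Groups whose libraries do not overlap are also common here, at 31.3 to 75.8% of all tested genes depending on the comparison.

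The genes lie in one cluster on chromosome 17, and their positions are given on GRCh38 from RefSeq. SLFN5 lies on the plus strand at chr17:35243072-35273655, and the MANE transcript has 5 exons and 10555 bases. On the minus strand follow SLFN11 at chr17:35350305-35373621 (7 exons, 5139 bases), SLFN12 at chr17:35410922-35433174 (4 exons, 2506 bases) and SLFN13 at chr17:35435096-35449766 (6 exons, 8398 bases). The gaps between them are 76.7 kb, 37.3 kb and 1.92 kb, so SLFN12 and SLFN13 are close neighbours. Of all 50-base windows of the SLFN11 transcript 12.1% also occur in another Schlafen transcript, all of them in SLFN13, where they make up 7.39% of windows. The share was 1.99% for SLFN12, with SLFN12L, and 0 for SLFN5. Reads from such stretches could be dropped or split between the genes by the counting. RefSeq also places LOC105371932 over SLFN5 and LOC105371933, a long non-coding RNA, over SLFN11, and since the strand setting of the counting is not given in the sources used here, reads from these overlaps cannot be assigned with certainty.

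Promoter sequences were read from RefSeq (GRCh38.p14) and are shown for SLFN11 and SLFN12, the 2 members that the table holds. SLFN11 was called in 9 of the 12 comparisons, which share groups and are not separate results, and SLFN12 in none. Each run is the 250 bases before the gene's start, from chr17:35373622-35373871 for SLFN11 and chr17:35433175-35433424 for SLFN12, both on the minus strand and printed 5′ to 3′. Capitals mark the ETS core GGAA and the GC box GGGCGG on either strand.
SLFN11 promoter: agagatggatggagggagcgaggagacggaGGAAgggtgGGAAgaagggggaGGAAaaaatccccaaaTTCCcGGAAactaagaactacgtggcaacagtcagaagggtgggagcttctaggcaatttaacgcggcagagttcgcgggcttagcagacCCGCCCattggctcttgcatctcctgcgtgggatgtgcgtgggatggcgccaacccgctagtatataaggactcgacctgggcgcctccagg
SLFN12 promoter: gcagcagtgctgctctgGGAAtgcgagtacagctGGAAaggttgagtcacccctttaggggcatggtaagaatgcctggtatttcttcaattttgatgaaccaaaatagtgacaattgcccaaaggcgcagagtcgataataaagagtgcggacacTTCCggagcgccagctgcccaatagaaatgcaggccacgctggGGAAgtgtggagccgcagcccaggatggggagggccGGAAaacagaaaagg
Both windows hold 4 ETS cores on the gene's strand and 1 on the other, a match found in 92.7% of the 35116 promoters of the same length. The SLFN11 window has 1 GC box on the opposite strand (42.6% of promoters hold one) and the SLFN12 window has 0. The core of the interferon-stimulated response element (GAAA, any 2 bases, GAAA) had 0 matches in either window and was found in 3.02% of promoters, and 4 runs of 3 or more G with 1 to 7 bases between runs, the letters of a potential G-quadruplex, had 0 matches in either and were found in 23.5%. All motifs were searched on both strands. GC content was 57.6% for SLFN11 and 53.2% for SLFN12, with a median of 58% over all promoters.

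Library totals ran from 18699929 to 63882077 counts. Within the B table the 6 untreated libraries held 18699929 to 22375644 counts and 0.217 to 0.474% rRNA, with TMM factors of 1.055 to 1.091. The 12 PDS libraries held 33260167 to 43713947 counts and 0.0163 to 0.0369% rRNA, with TMM factors of 0.954 to 0.992. PDS treatment and these differences between libraries therefore cannot be told apart in a comparison with untreated cells. The ranges of the 2 h and 6 h libraries overlap. The 14 ovarian carcinoma and epithelial markers summed to 7041 to 16489 CPM in every library, with the lineage factor PAX8 at 105 to 347 CPM, although SOX17 did not exceed 0.308 CPM and FOLR1 was near 0 in PEO1. The 13 leukocyte markers summed to 28.7 to 84.1 CPM and were mostly CD68, a lysosomal protein, and PTPRC (CD45) did not exceed 0.0418 CPM. The 10 fibroblast and endothelial markers summed to 3.60 to 38.5 CPM. In bulk RNA, fewer cells expressing a gene and less RNA per cell cannot be told apart.

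**Figure D1:**
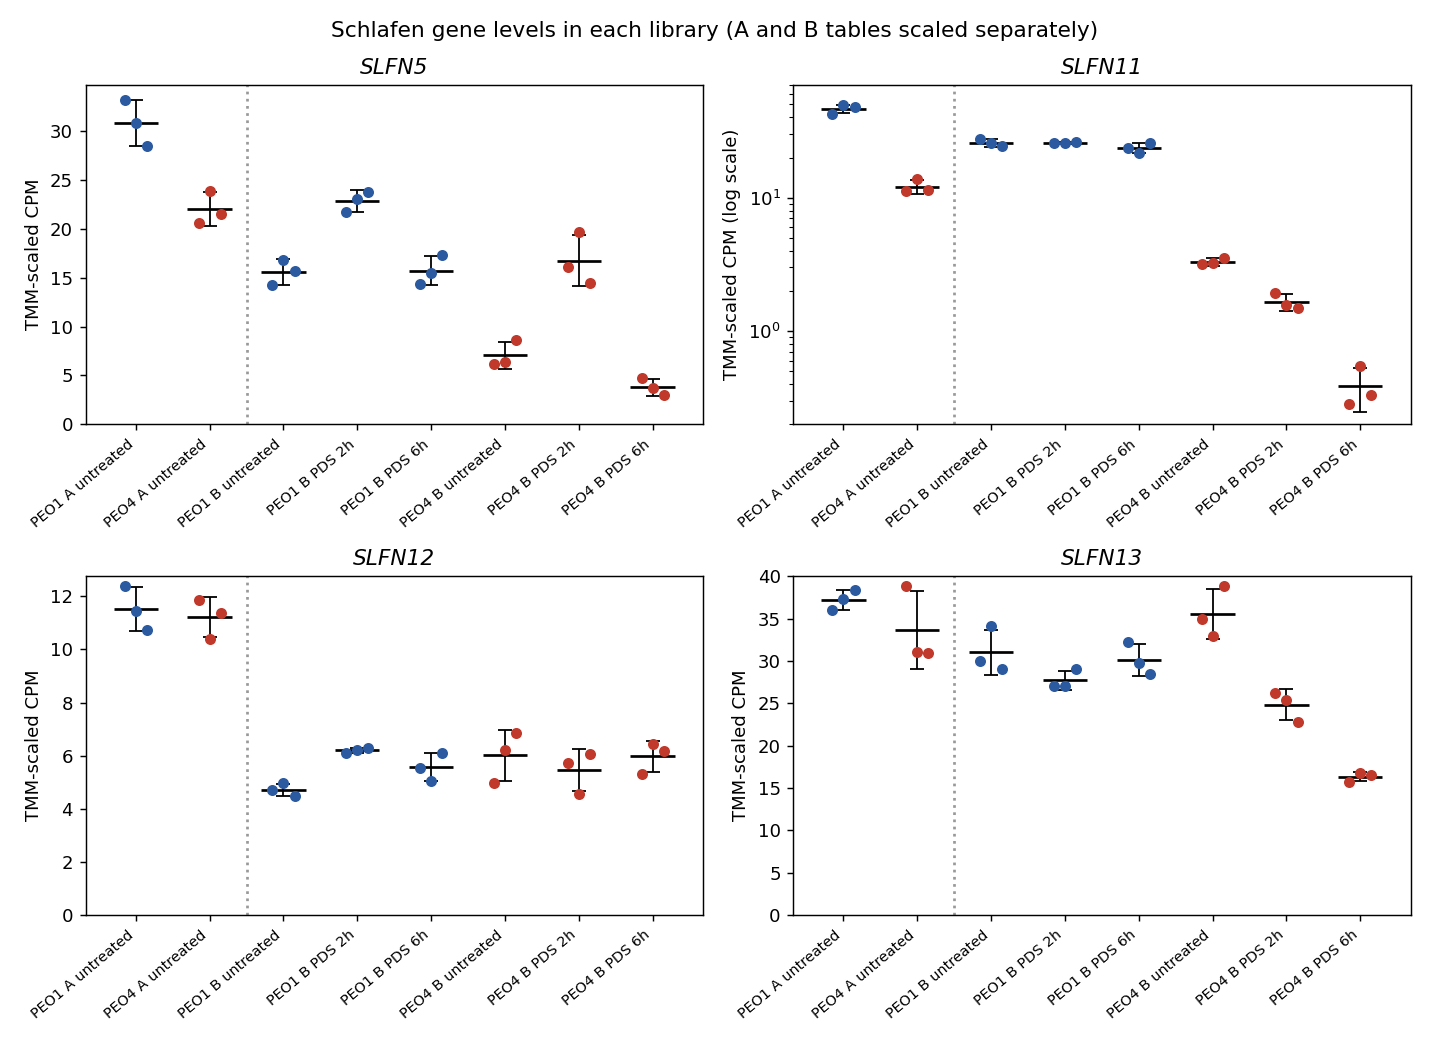
TMM-scaled CPM of the 4 Schlafen genes in each library (points; blue PEO1, red PEO4), with the mean of 3 libraries (horizontal line) and SD (bar); the dotted line separates the A and B tables, and the SLFN11 axis is logarithmic. SLFN11 drops in PEO4 B from a mean of 3.31 CPM untreated to 0.388 CPM at 6 h of PDS, while PEO1 B stays between 21.6 and 27.4 CPM.

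SLFN11 was read at 42.4, 49.3 and 47.4 CPM in the PEO1 A libraries and at 11.2, 13.7 and 11.4 CPM in PEO4 A. The groups did not overlap. On the log2 scale PEO4 A was lower by 1.94 (log2 fold change -1.94, SE 0.11, adjusted p 1.29e-08, edgeR), or 3.83-fold. In the untreated B pair SLFN11 stood at 27.4, 25.5 and 24.2 CPM in PEO1 B and at 3.16, 3.21 and 3.55 CPM in PEO4 B, on counts of 64 to 77 reads per PEO4 library. Every PEO4 B library was below every PEO1 B library, and the log2 fold change was -2.96 (SE 0.11, adjusted p 2.44e-17), or 7.77-fold lower.

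PDS left SLFN11 in PEO1 B close to its untreated level, at 25.9, 25.7 and 26.04 CPM after 2 h and 23.7, 21.6 and 25.5 CPM after 6 h. The treated libraries overlapped the untreated ones at both times. The log2 fold change was 0.01 at 2 h (95% interval -0.18 to 0.20) and -0.12 at 6 h (95% interval -0.31 to 0.07), and neither passed the test (edgeR adjusted p 0.941 and 0.245). Under other scalings, filters and tests the 6 h value ran from -0.27 to -0.10, all inside the fold threshold. The lowest adjusted p among those edgeR and DESeq2 settings was 0.0146. In PEO4 B the libraries read 1.92, 1.56 and 1.49 CPM at 2 h and 0.286, 0.549 and 0.329 CPM at 6 h. Each time point lay wholly below the one before it, and at 6 h the gene rested on 11 to 18 reads per library. The fall was -1.003 at 2 h (SE 0.15, adjusted p 1.74e-06) and -3.11 at 6 h (SE 0.19, adjusted p 6.88e-13), an 8.62-fold drop by 6 h. In the same line the summed fibroblast and endothelial markers went from 31.6 to 33.8 CPM untreated to 3.60 to 4.76 CPM at 6 h, mostly COL1A1 (means 22.1 and 2.80 CPM), and the leukocyte markers from 34.1 to 57.5 CPM to 70.3 to 79.8 CPM, mostly CD68. Their part in the SLFN11, SLFN5 and SLFN13 results of PEO4 B was not tested.

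The 2 h call of SLFN11 in PEO4 B sat at the fold threshold. Its log2 fold change moved to -0.95 without PEO4 B untreated replicate 3, to -0.96 without PEO4 B PDS 2h replicate 2 and to -0.92 without PEO4 B PDS 2h replicate 3, all under the threshold, with adjusted p up to 2.70e-05 (edgeR). The 6 h value ran from -3.41 to -2.89 when each library was left out in turn. Between 2 and 6 h, where depth and rRNA share overlap, SLFN11 fell in PEO4 B by 2.11 on the log2 scale (SE 0.20, adjusted p 5.25e-09), in a comparison that called 2 of the 4 genes and 12% of all genes. The same comparison in PEO1 B gave -0.13 (adjusted p 0.429), with 0 of 4 genes called by edgeR or DESeq2 and 0.17% of all genes by edgeR. At an unadjusted edgeR p under 0.05 alone 1 of 4, SLFN5, passed, and 6.94% of all genes passed the stricter adjusted p alone.

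The change from untreated to PDS libraries differed between the lines for SLFN11. It rests on the untreated B libraries, which differ from the PDS libraries in depth and rRNA share. The interaction term (PEO4 B response minus PEO1 B response) was -1.01 at 2 h (SE 0.17, adjusted p 4.27e-05) and -2.99 at 6 h (SE 0.22, adjusted p 8.05e-11) by edgeR. SLFN11 was the only 1 of the 4 genes called in the 2 h interaction, where 11% of all genes were called, and SLFN11 and SLFN13 were called in the 6 h interaction, where 14.8% were. The 2 h term fell short of the fold threshold without PEO1 B untreated replicate 3 (-0.98), without PEO4 B untreated replicate 3 (-0.96), without PEO4 B PDS 2h replicate 2 (-0.98) and without PEO4 B PDS 2h replicate 3 (-0.94). Between the treated lines SLFN11 was 15.7-fold lower in PEO4 B than in PEO1 B at 2 h (log2 fold change -3.97, adjusted p 6.56e-20) and 61.5-fold lower at 6 h (log2 fold change -5.94, SE 0.14, adjusted p 3.75e-21).

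SLFN5 was the second nuclear gene to differ between the lines. In the A pair it read 33.2, 30.9 and 28.5 CPM in PEO1 A and 20.6, 23.9 and 21.6 CPM in PEO4 A. The groups did not overlap, but the log2 fold change of -0.49 (SE 0.10, adjusted p 0.000931) was inside the fold threshold. In the untreated B pair the libraries read 14.3, 16.9 and 15.7 CPM in PEO1 B and 6.15, 6.43 and 8.61 CPM in PEO4 B, and SLFN5 was called lower in PEO4 B (log2 fold change -1.14, SE 0.15, adjusted p 5.69e-07, 2.21-fold).

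Under PDS, SLFN5 moved up and then down, and the PEO4 B values crossed their untreated level. PEO4 B held 16.1, 19.7 and 14.5 CPM at 2 h, all above the untreated libraries, and 4.72, 3.72 and 2.99 CPM at 6 h, all below them. The rise at 2 h was called (log2 fold change 1.24, SE 0.14, adjusted p 1.36e-07, 2.37-fold). The 6 h value of -0.87 (SE 0.16, adjusted p 6.68e-05) missed the fold threshold, and it passed without PEO4 B PDS 6h replicate 1, at -1.06. From 2 to 6 h the fall was called (log2 fold change -2.12, SE 0.15, adjusted p 1.33e-10).

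In PEO1 B SLFN5 was also highest at 2 h, at 21.7, 23.1 and 23.8 CPM after 2 h and 14.3, 15.5 and 17.3 CPM after 6 h. The 2 h libraries lay above both other groups, while the 6 h libraries overlapped the untreated ones. The log2 fold changes of 0.55 at 2 h (adjusted p 0.00116), 0.01 at 6 h (adjusted p 0.958) and -0.54 from 2 to 6 h (adjusted p 0.0103) were all inside the fold threshold. The interaction was 0.69 at 2 h (adjusted p 0.00738) and -0.88 at 6 h (adjusted p 0.00152), neither of them called, and the 6 h term passed, at -1.08, without PEO4 B PDS 6h replicate 1. Between the treated lines SLFN5 was -0.45 at 2 h (adjusted p 0.00267), where 1 of 4 genes and 26.5% of all genes were called, and -2.03 at 6 h (adjusted p 4.94e-11), where 2 of 4 genes and 23% of all genes were.

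**Figure D2:**
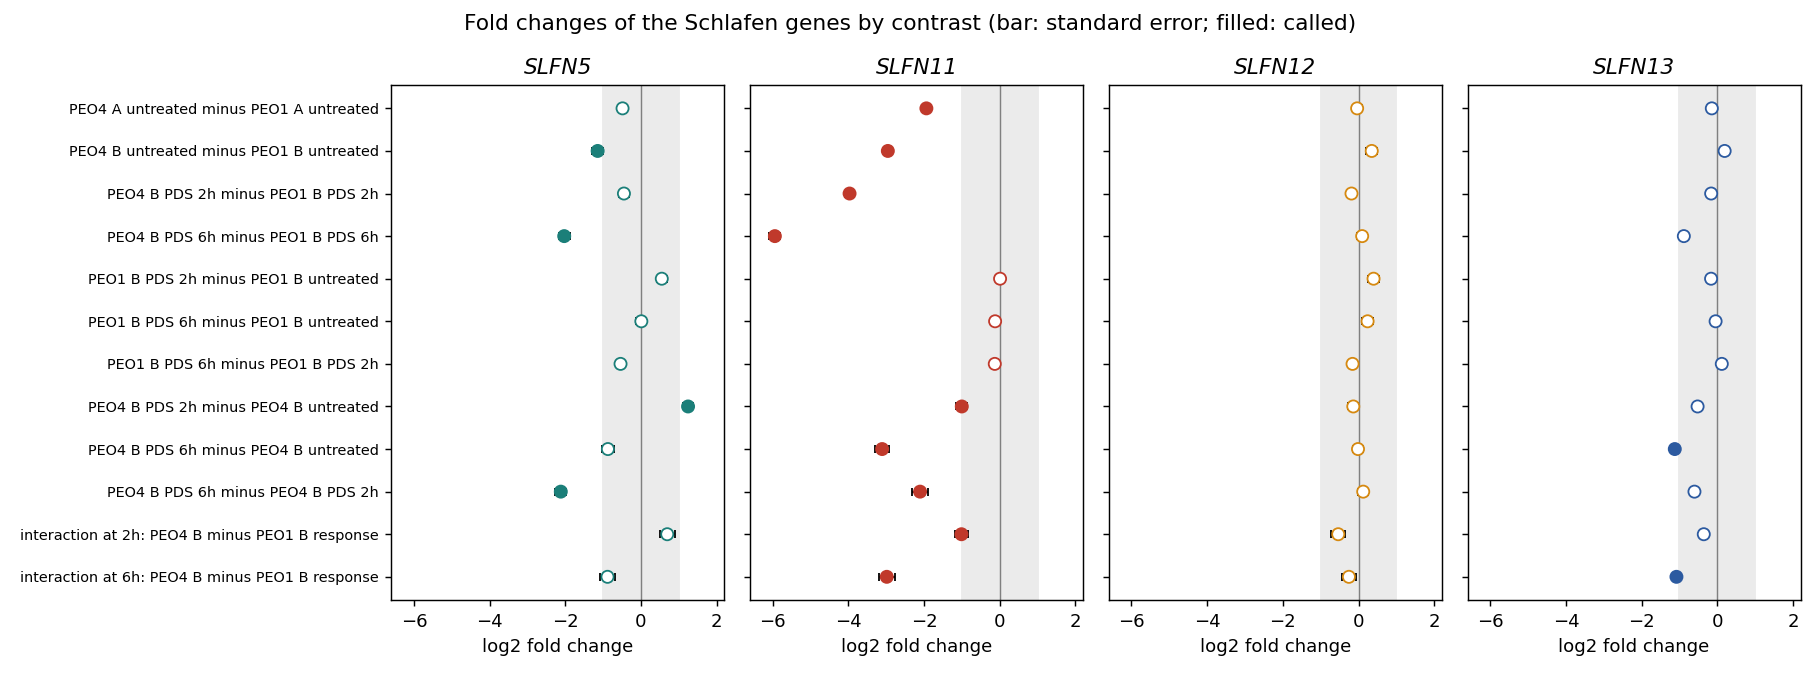
Log2 fold change (x axis) of each Schlafen gene in the 12 comparisons (y axis), with the standard error as a bar; filled points were called and the grey band spans -1 to 1. SLFN11 lies below the band in every PEO4 minus PEO1 comparison, down to -5.94 at 6 h of PDS, and SLFN12 lies inside the band throughout.

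SLFN13, an RNase of transfer and ribosomal RNA, was at like levels in untreated PEO1 and PEO4. The A libraries read 36.0, 37.3 and 38.4 CPM in PEO1 and 38.9, 31.1 and 30.9 CPM in PEO4, which overlapped (log2 fold change -0.14, 95% interval -0.43 to 0.14, adjusted p 0.235). In the untreated B pair the values were 30.0, 34.1 and 29.1 CPM in PEO1 and 34.9, 32.9 and 38.8 CPM in PEO4, overlapping, with a log2 fold change of 0.20 (adjusted p 0.0294) inside the fold threshold.

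SLFN13 fell in PEO4 B under PDS. The libraries read 26.3, 25.4 and 22.8 CPM at 2 h and 15.7, 16.8 and 16.6 CPM at 6 h, each group wholly below the one before it. The log2 fold change was -0.52 at 2 h (adjusted p 2.08e-06, inside the fold threshold) and -1.12 at 6 h (SE 0.08, adjusted p 5.93e-12), the latter called and 2.18-fold, and from 2 to 6 h it was -0.60 (adjusted p 4.34e-07). PEO1 B held 27.1, 27.1 and 29.0 CPM at 2 h and 32.2, 29.7 and 28.4 CPM at 6 h, with log2 fold changes of -0.16 (adjusted p 0.0783) and -0.04 (95% interval -0.21 to 0.12, adjusted p 0.656) against untreated. The interaction was -0.36 at 2 h (adjusted p 0.0118) and was called at 6 h, at -1.08 (SE 0.11, adjusted p 2.44e-08). Between the treated lines SLFN13 stood at -0.16 at 2 h (adjusted p 0.0594) and -0.88 at 6 h (adjusted p 2.61e-10), both inside the fold threshold.

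SLFN12, the RNase engaged by PDE3A-binding drugs, was the lowest of the 4 genes in PEO1 by CPM and was called in none of the 12 comparisons. In the A pair it read 12.4, 11.4 and 10.7 CPM in PEO1 and 11.9, 10.4 and 11.4 CPM in PEO4, overlapping, with a log2 fold change of -0.04 (95% interval -0.37 to 0.30, adjusted p 0.81). In the B table PEO1 read 4.70, 4.96 and 4.48 CPM untreated, 6.11, 6.23 and 6.29 CPM at 2 h and 5.53, 5.06 and 6.10 CPM at 6 h. The 2 h value of 0.40 (adjusted p 0.0160) lay inside the fold threshold, as did 0.24 at 6 h (adjusted p 0.143), although neither treated group overlapped the untreated one. PEO4 read 4.98, 6.23 and 6.86 CPM untreated, 5.72, 4.56 and 6.07 CPM at 2 h and 5.32, 6.44 and 6.17 CPM at 6 h, and these 3 groups overlapped (log2 fold change -0.14 at 2 h, adjusted p 0.371, and -0.01 at 6 h, 95% interval -0.30 to 0.27, adjusted p 0.938). Between the lines SLFN12 was 0.35 untreated (adjusted p 0.0317), -0.19 at 2 h (adjusted p 0.189) and 0.10 at 6 h (adjusted p 0.51), and the interaction was -0.54 at 2 h (adjusted p 0.0286) and -0.25 at 6 h (adjusted p 0.287).

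The order of the group means can be read for each gene within the B table. For SLFN11 the 3 PEO1 groups came first, at 25.9 (2 h), 25.7 (untreated) and 23.6 CPM (6 h), and overlapped their neighbours, followed by the 3 PEO4 groups, none of which overlapped the next. SLFN5 ran from PEO1 B at 2 h (22.9 CPM) through PEO4 B at 2 h (16.8), PEO1 B at 6 h (15.7) and PEO1 B untreated (15.6), the last 3 of which overlapped in turn, to PEO4 B untreated (7.06) and PEO4 B at 6 h (3.81 CPM), which stood apart. SLFN13 was highest in PEO4 B untreated (35.5 CPM) and the 4 highest groups overlapped in turn, with PEO4 B at 2 h (24.8) and at 6 h (16.3 CPM) separate below them. All 6 SLFN12 groups, from 4.71 to 6.21 CPM, overlapped the next in order.

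To compare the genes with each other, CPM was divided by the length of the MANE transcript. Summed over the 4 genes this level was 21.0 ± 0.479 CPM per kb in PEO1 A and 12.9 ± 0.523 in PEO4 A, 12.1 ± 0.579 in untreated PEO1 B and 7.95 ± 0.807 in untreated PEO4 B (SD, n = 3). SLFN11 was the largest component in PEO1, with 43.0% of the sum in PEO1 A, 41.5% in PEO1 B untreated and 38.6% at 6 h of PDS. In PEO4 it made up 18.3% in the A pair and 8.12%, 4.56% and 1.57% in the B line at 0, 2 and 6 h. In untreated PEO4 A SLFN12 was the largest component (34.6%), ahead of SLFN13 (30.9%). SLFN13 was the largest component of untreated PEO4 B (53.4%), and SLFN12 was the largest there at 6 h of PDS (49.9%). At 6 h the sum was 4.77 ± 0.263 CPM per kb, and the SLFN12 level itself, 2.38 CPM per kb, was close to the untreated 2.40.

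**Figure D3:**
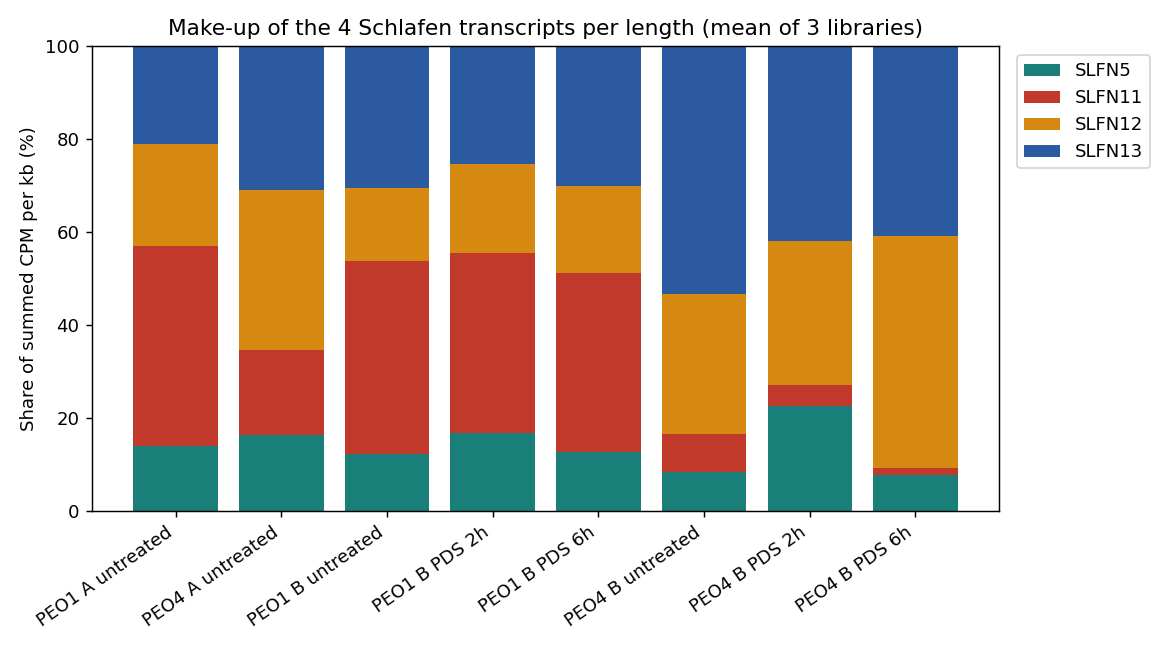
Share of each Schlafen gene in the summed CPM per kb of the 4 genes (y axis, percent; mean of 3 libraries) for the 8 groups. SLFN11 (red) makes up 38.6 to 43.0% in the PEO1 groups and 1.57 to 18.3% in the PEO4 groups.

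Over the 18 B libraries, log2 CPM of SLFN11 was correlated with SLFN5 (Pearson r 0.774), SLFN13 (0.694) and SLFN12 (-0.197), and SLFN5 with SLFN13 at 0.521. These are descriptions over libraries that share lines and treatments. Among 10166 genes of sufficient level, SLFN11 was most like DMTN (r 0.996), TCAF1 (0.989) and IGFBP3 (0.987). DMTN, an actin-bundling protein, stood at 72.1, 72.4 and 70.4 CPM in PEO1 B at 0, 2 and 6 h and at 35.2, 28.2 and 19.0 CPM in PEO4 B, and IGFBP3, a carrier of insulin-like growth factors, at 722, 712 and 689 CPM and at 213, 80.8 and 44.5 CPM. SLFN5 was most like NIPSNAP1 (0.968), MAGED1 (0.962) and the keratin KRT15 (0.959), which rose from 20.9 to 73.1 and went back to 9.49 CPM in PEO4 B. SLFN13 was most like SYTL1 (0.976), the tetraspanin CD9 (0.975) and GDPD5 (0.970). The closest genes to SLFN12 had lower r, at 0.730 for WASHC5, 0.718 for PCM1 and 0.678 for MTBP.

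The other Schlafen genes were rare in these lines. SLFN12L had at most 11 reads in any library and SLFN14, a ribosome-associated RNase at the end of the cluster, at most 4, and neither passed the filter on low counts. SLFNL1, a distant relative, was tested, with mean levels from 0.391 to 1.64 CPM, and was called in none of the 12 comparisons.

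Of 21 genes listed within 300 kb of the cluster, 9 were tested in the A table and 11 in the B table. None of the 11 was called after PDS in either line, where 7.57 to 22.6% of all genes were called against untreated. In PEO4 B at 6 h their median log2 fold change was 0.48, beside -0.028 over all genes and -3.11 for SLFN11. Near the cluster, NLE1, a ribosome assembly factor, stood at 0.97 and AP2B1, a clathrin adaptor subunit, at 0.91 in that comparison, both inside the fold threshold. In PEO4 minus PEO1 the medians of the neighbours were below 0, as SLFN11 was, at -0.26 in the A pair and, in the B pair, -0.38 untreated, -0.39 at 2 h and -0.22 at 6 h. Over all genes the medians of these comparisons were -0.0061, -0.0011, 0.021 and -0.0032. Between the untreated B lines 2 neighbours were called, FNDC8 at -1.69 and the Ras-like RASL10B at -1.05 (edgeR adjusted p 3.89e-07 and 3.37e-08). In the A pair 1 was, the non-coding SNHG30 at 1.22 (adjusted p 0.000248). Of all genes 24.8% were called in the B pair and 25.8% in the A pair. FNDC8 was also called lower in PEO4 B than in PEO1 B at both PDS times (26.5 and 23% of all genes were called), and SNHG30 higher at 6 h. RASL10B was called higher in the 6 h interaction (14.8% of all genes were called). FNDC8 overlaps NLE1 in RefSeq, and NLE1 stood at -0.88 in the untreated B pair, so reads from this overlap cannot be assigned with certainty. The same holds for RAD51L3-RFFL, which overlaps RFFL and RAD51D and was itself the untreated B median at -0.38. It had 0 CPM in the A pair but 23.6 and 18.1 CPM in untreated PEO1 B and PEO4 B. RFFL had 4.14 and 2.93 CPM in PEO1 A and PEO4 A but 29.8 and 21.9 CPM in the untreated B pair. The neighbour medians of the A and B pairs are therefore not like for like.

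**Figure D4:**
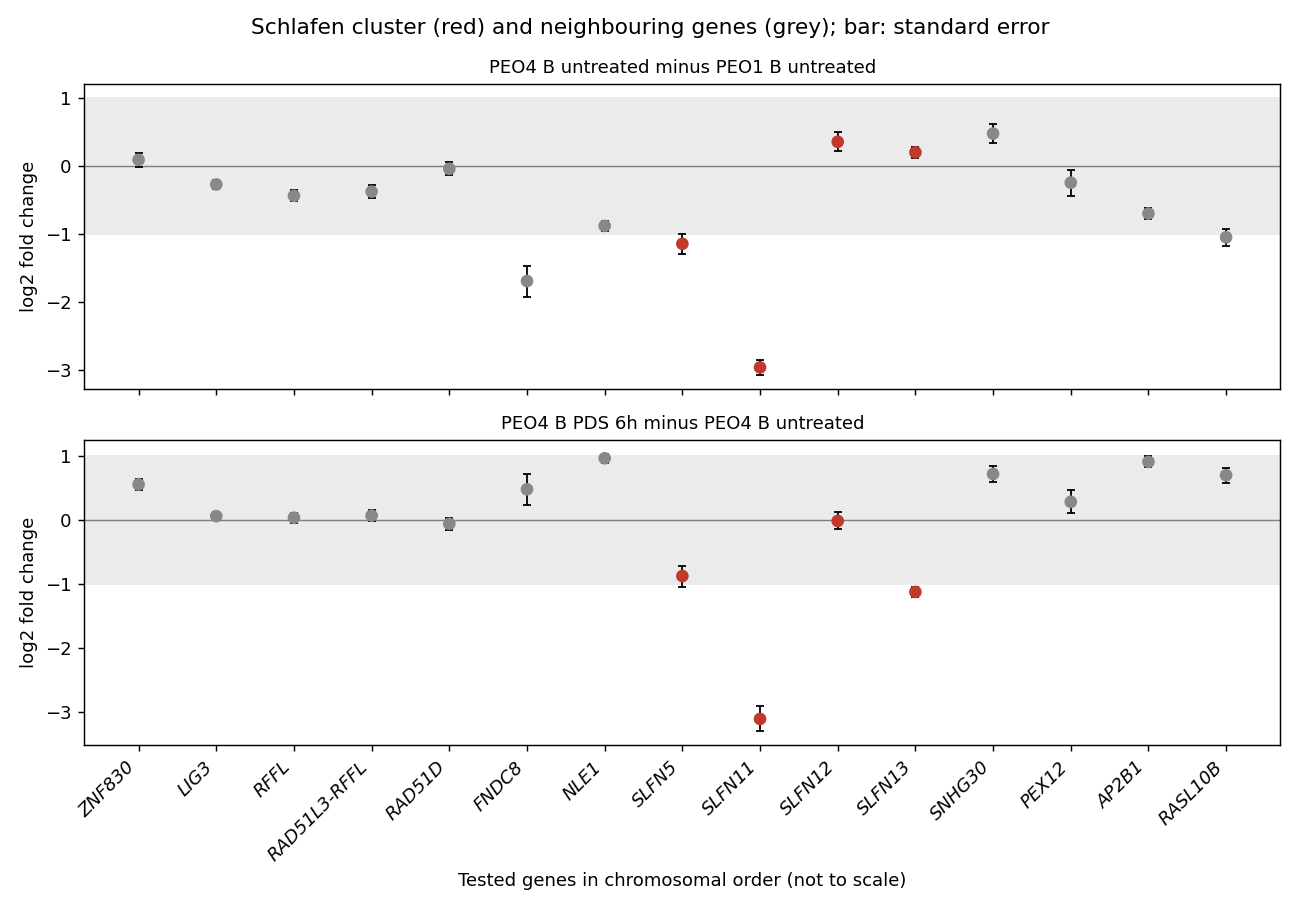
Log2 fold change (y axis, bar: standard error) of the tested genes along the Schlafen locus in chromosomal order (x axis, not to scale), for PEO4 B minus PEO1 B untreated (top) and PEO4 B at 6 h of PDS minus untreated (bottom); Schlafen genes in red, neighbours in grey, grey band from -1 to 1. SLFN11 is the lowest point in both panels, at -2.96 and -3.11, between neighbours that lie mostly inside the band.

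Schlafen genes are known interferon targets, so a list of 26 type I interferon-stimulated effectors was read beside them. All 25 tested effectors were called higher in PEO4 in both untreated pairs, where 12.6% (A) and 12.2% (B) of all genes were. Their median log2 fold change was 3.79 in the A pair and 3.81 in the B pair, against a median of -0.0061 and -0.0011 over all genes. The order of SLFN11 was the opposite in both pairs, and SLFN5, SLFN12 and SLFN13 were called higher in PEO4 in neither. BST2, which tethers budding viruses, had means of 2.23 and 615 CPM in PEO1 A and PEO4 A and of 0.0719 and 63.8 CPM in the B pair, where PEO1 B rested on 1 to 3 reads per library. IFITM1, which blocks viral entry, had means of 3.45 and 600.3 CPM in the A pair and 0.320 and 119 CPM in the B pair. The untreated PEO4 B libraries differed among themselves in these genes, with MX2, a viral capsid inhibitor, ranging from 4.07 to 13.0 CPM.

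Under PDS 13 of the 25 effectors were called lower in PEO4 B at 2 h, 1 higher (ISG20, 1.69) and 11 neither, with a median log2 fold change of -1.005. At 6 h 18 were called lower, 0 higher and 7 neither, with a median of -1.68 beside -0.028 for all genes. Of all tested genes 11% were called lower at 2 h and 16.3% at 6 h. IFI44L fell from 21.9 to 0.757 CPM (log2 fold change -4.89, SE 0.36, adjusted p 6.31e-09, edgeR) and BST2 from 63.8 to 2.18 CPM (log2 fold change -4.88, SE 0.33, adjusted p 1.06e-08). In PEO1 B 2 effectors were called higher at 2 h, IFI44 (1.28, edgeR adjusted p 7.60e-08) and OASL (1.08, adjusted p 4.46e-05), and 1 lower, MX2, with a median of 0.45. Of all genes 1.18% were called higher in that comparison and 6.39% lower. At 6 h 2 effectors were called lower in PEO1 B, MX2 (-2.69, adjusted p 0.00502) and XAF1 (-2.24, adjusted p 0.0356), and 0 higher, where 6.83% of all genes were called lower. MX2 rested on 13 to 18 reads per untreated PEO1 B library, 0 to 2 at 2 h and 3 to 5 at 6 h, and XAF1 on 9 to 37 untreated and 4 to 12 at 6 h. The 6 h interaction called 17 of 25 lower, beside 9.34% of all genes, in a list with a median of -1.52.

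**Figure D5:**
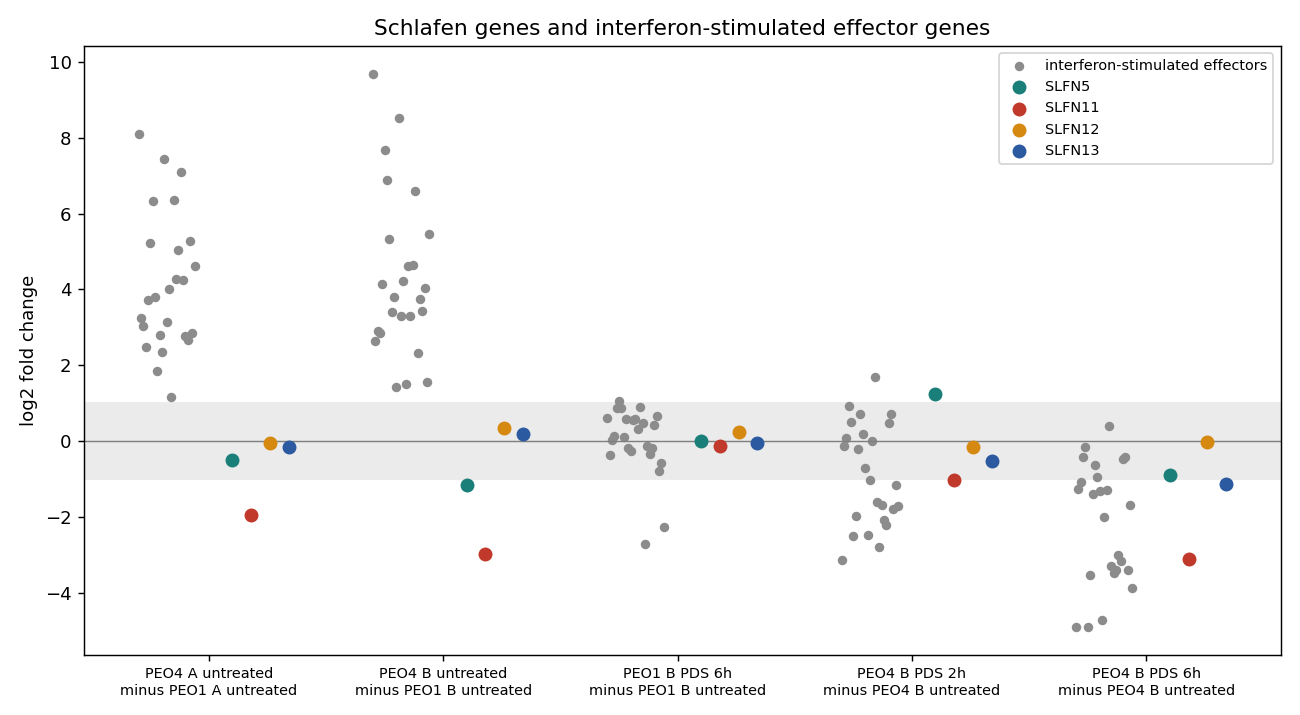
Log2 fold change (y axis) of the 25 tested interferon-stimulated effectors (small grey points) and the 4 Schlafen genes (large coloured points) in 5 comparisons; the grey band spans -1 to 1. All effectors lie above the band for PEO4 minus PEO1 in both tables, where SLFN11 lies below it at -1.94 and -2.96, and at 6 h of PDS in PEO4 B 18 effectors are called lower together with SLFN11 and SLFN13.

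Of 11 interferon receptors and signalling genes, 5 were called higher in PEO4 A (12.6% of all genes were) and 3 in PEO4 B untreated (12.2%), with 0 lower. STAT2 and IRF9 were among them in both pairs. STAT2, a transcription factor downstream of the receptors, had a log2 fold change of 1.80 in the A pair, and IRF9, the DNA-binding partner of STAT2, had one of 2.83 in the B pair. In PEO4 B 2 were called lower at 2 h of PDS (11% of all genes were) and 5 at 6 h (16.3%), with 0 higher at either time. The 6 h falls were led by IRF9 at -2.40 (edgeR adjusted p 1.77e-15) and the interferon gamma receptor chain IFNGR2 at -1.81 (adjusted p 3.11e-07). IFNGR2 was also the 1 gene of the list called in PEO1 B at 6 h, at -1.35 (edgeR adjusted p 2.86e-05), where 8.13% of all genes were called.

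Of 13 proteins that act with SLFN11 at stressed replication forks, such as the RPA single-strand binding complex, MCM3 and the checkpoint kinase ATR, none was called for PDS in either line, where 7.57 to 22.6% of all genes were called against untreated, or in either interaction (11% and 14.8% of all genes), and the median log2 fold change in PEO4 B at 6 h was 0.39. CUL4A, a ubiquitin ligase scaffold, was lower in untreated PEO4 B than in PEO1 B (180.0 to 70.2 CPM, log2 fold change -1.36, SE 0.06, adjusted p 2.35e-16) and was not called in the A pair. CUL4A was also called lower in PEO4 B than in PEO1 B at both PDS times, together with ATR at 2 h. Among the SLFN12 partners, PDE3A was rare, with mean levels from 0.00978 to 1.08 CPM over the 8 groups, and was called higher in PEO4 in both untreated pairs, on 1 to 2 reads per library in PEO1 B and 10 to 19 in PEO4 B. Its relative PDE3B went the other way in the B pair, from 2.07 CPM in PEO1 to 0.375 in PEO4 (log2 fold change -2.48, adjusted p 5.00e-07), and rose with PDS in PEO4 B at 6 h (1.38, adjusted p 0.00146), where PDE3A fell (-2.57, adjusted p 3.90e-05).

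Genes described as regulators of SLFN11 transcription were read last, 7 of 9 of which could be tested. FLI1, an ETS factor, had 0 reads in all but 1 library, where it had 1. ETS1, a factor of the same family, averaged 249 CPM in PEO1 B and 92.9 CPM in PEO4 B untreated (log2 fold change -1.42, SE 0.12, adjusted p 1.47e-08), below the threshold in the A pair at -0.55 (adjusted p 0.0302). It then rose in PEO4 B to 356 CPM at 6 h of PDS (log2 fold change 1.94, SE 0.12, adjusted p 3.22e-10), in the direction opposite to SLFN11. EZH2, the methyltransferase of the Polycomb complex that silences genes, averaged 105 and 71.0 CPM in PEO1 A and PEO4 A and 94.1 and 61.2 CPM in the untreated B pair, and stood at 0.51 in PEO4 B at 6 h (adjusted p 5.93e-08), all inside the fold threshold, and it was called lower in PEO4 B than in PEO1 B at 2 h. The histone deacetylase HDAC1 was called higher in PEO4 A (1.03, adjusted p 1.62e-07) and in PEO4 B than in PEO1 B at both PDS times, but not in the untreated B pair.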

How the data were processed

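PolyA RNA-seq of 24 libraries (8 groups of 3, described by the study as biological replicates, 150-base paired reads) was quantified by the authors with FastQC, fastp, STAR on hg38 and featureCounts, as the submitters' processing notes name them; versions, annotation and strand setting are not given in the sources used here. The A libraries used a directional polyA kit, and the kit of the B libraries is not given in the sources used here. The deposited values are raw gene counts in 2 tables, and 2 lines (A) and 1 line (B) were left out: KIR2DS2, which has no values in either table, and in A a line that holds chromosome names in place of a gene. Replicates differed by more than sampling noise in every group. Here, counts were filtered with filterByExpr (minimum count 10), scaled by TMM and tested with edgeR 4.0.16 (R 4.3.3; glmQLFit robust, glmQLFTest), 1 mean per group and all groups of a table in 1 fit, with Benjamini-Hochberg adjustment over all tested genes. The scripts were tested on simulated counts. DESeq2 1.42.0 was an alternative. Genes named beside the 4 members were the 2 called members with the largest change per gene list in the 2 untreated comparisons and the 2 comparisons at 6 h, fixed genes of those lists with their levels, the 3 genes with the highest Pearson r (mean log2 CPM at least 3, prior count 2) and genes within 300 kb; ISG20, ATR, HDAC1, NLE1, AP2B1, COL1A1 and marker genes were named after their values were seen. Single values of some genes of these lists are not reported here. Members and lists were chosen with earlier results of these data known. P-values measure the spread between these replicates only.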

Additional observations from a re-analysis of the deposited data

Results flagged for a closer look

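SLFN11 is listed because its change from untreated to PDS libraries differed between PEO4 B and PEO1 B, with an edgeR interaction of -1.01 on the log2 scale at 2 h (adjusted p 4.27e-05) and -2.99 at 6 h (adjusted p 8.05e-11). Means fell from 3.31 to 1.65 and 0.388 CPM in PEO4 B, and were 25.7, 25.9 and 23.6 CPM in PEO1 B. Both terms use the same untreated libraries. SLFN13 is listed for the same reason at 6 h, with an interaction of -1.08 (adjusted p 2.44e-08), means of 35.5 and 16.3 CPM in PEO4 B and of 31.0 and 30.1 CPM in PEO1 B.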

How the results depend on the processing

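The counts of called Schlafen genes and their log2 fold changes were recomputed under other scalings, filters, a DESeq2 Wald test, fits of only the groups compared, a replicate block and with each library left out. The 6 h falls of SLFN11 and SLFN13 in PEO4 B and the PEO4 minus PEO1 calls of SLFN11 and SLFN5 held their direction and their call in each. The 2 h interaction had 0 of the 4 called with library totals or upper-quartile scaling (SLFN11 at -0.993 and -0.996), and 0 to 1 with a library left out. Of 17020 genes, library totals called 1086 higher and 810 lower there, and upper-quartile scaling 1083 and 817. PEO4 B at 2 h had 1 of the 4 called without the filter on low counts (SLFN11 at -0.98) and 1 to 2 with a library left out. Without the filter 1206 of 23531 genes were called higher there and 2064 lower. The main fit called 11% of all genes in the 2 h interaction and 17.4% in PEO4 B at 2 h. With adjusted p alone the counts were 2 (A pair, 61.6% of all genes), 4 (untreated B pair, 68.6%) and 2 (lines at 2 h, 72.9%). They were 2 in PEO1 B at 2 h (52.6%), 1 in PEO1 B from 2 to 6 h (6.94%) and 4 in the 2 h interaction (37.3%). SLFN5 in PEO4 B at 6 h was called with library totals (-1.04).

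Values near 0 changed sign. SLFN12 in the A pair was 0.024 with upper-quartile scaling and -0.087 to 0.018 with a library left out. SLFN11 in PEO1 B at 2 h was -0.14 (library totals), -0.070 (upper quartile) and -0.0031 (at least 1 CPM in 3 libraries), and -0.023 to 0.064 with a library left out. SLFN5 in PEO1 B at 6 h was -0.14, -0.078 and -0.017 under the same 3 settings, -0.00068 with DESeq2 size factors, -0.0021 in a fit of only the groups compared, and -0.055 to 0.080 with a library left out. SLFN13 in PEO1 B at 6 h was -0.092 to 0.041 with a library left out, and SLFN12 in PEO4 B at 6 h was 0.018 without the filter and -0.13 to 0.098 with a library left out. The cause was not tested.

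Levels moved by more than 1 SD with library totals for SLFN11 in PEO1 B untreated (27.5 CPM), PEO1 B at 2 h (24.97) and PEO4 B untreated (3.54), SLFN12 in PEO1 B untreated (5.04) and at 2 h (5.99) and SLFN13 in PEO4 B at 6 h (15.7 CPM). With TMM over all libraries they moved for SLFN11 (26.3 CPM) and SLFN12 (6.31) in PEO1 B at 2 h, SLFN12 in PEO1 A (10.7) and PEO4 A (10.4), and SLFN13 in PEO1 A (34.5 CPM).

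Groups share replicate numbers, but same-numbered libraries did not deviate together: over 48 pairs of libraries r ran from -0.16 to 0.13, with 1 above 0.1 and 17 best with their own number, so the samples share only a number. With the number as a replicate block the counts of called genes were 1 in the A pair, 2 in the untreated B pair and 1 and 2 between the lines at 2 and 6 h. They were 0 for each PEO1 B comparison, 2 for each PEO4 B comparison, and 1 and 2 for the interactions at 2 and 6 h, the same as without the block. Over all genes the block called 1953 of 15882 higher and 2064 lower in the A pair. In the untreated B pair it called 2079 of 17020 higher and 2144 lower. Against untreated at 6 h it called 1068 higher and 2765 lower in PEO4 B, and 219 and 1151 in PEO1 B. At 6 h SLFN11 rested on 11 to 18 reads per PEO4 B library, which limits how well its level there is known.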
